A study of Mus musculus with 8 samples.

Results

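The comparison asks which testis transcripts differed when Nb23-bi was given together with dehydroepiandrosterone (DHEA) to mice that had received lipopolysaccharide (LPS). It sets the 2 LPS+DHEA+Nb libraries against the 2 LPS+DHEA libraries, 4 of the 8 libraries in the series, chosen by their treatment labels alone, and covers all expressed genes. Every library came from the testis of wild-type male mice, whose strain and age the sources used here do not give. Mice of the LPS+DHEA group received LPS and, 6 h later, DHEA. Mice of the LPS+DHEA+Nb group received LPS and, 6 h later, DHEA with Nb23-bi. Both groups therefore share LPS and DHEA and differ in Nb23-bi, all of them injected into the peritoneal cavity. The remaining groups, used here as reference levels, were CTRL (phosphate-buffered saline, 2 libraries) and LPS alone (2 libraries). The labels name Nb23-bi without describing it, and none of the 8 libraries came from mice given Nb23-bi without DHEA. The sources used here do not give doses or the time of tissue collection. Nothing states that the 2 libraries of a group came from separate animals, so the p-values measure only the spread between these libraries, which may be technical.

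LPS, a component of the outer membrane of Gram-negative bacteria, is sensed by Toll-like receptor 4, which activates the transcription factor NF-kB. NF-kB and the factors that follow it (STAT and C/EBP proteins) turn on cytokines, adhesion molecules and secreted acute phase proteins. In the testis, germ cells lie inside the seminiferous tubules with Sertoli cells, contractile peritubular myoid cells wrap the tubules, and Leydig cells and macrophages occupy the space between them. Leydig cells make testosterone from cholesterol through a short chain of enzymes, and LPS is known to lower this output. DHEA is an intermediate on the way to androgens.

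Levels are given as CPM, counts scaled to a common library size but not for transcript length, so they are compared within a gene and not between genes. Depth ran from 61.3 to 64.5 M counts per library. The tissue label was checked, because the extraction text mentions islets. Tnp1, a protein that packs DNA in spermatids, stood at 1712 and 1846 CPM in the LPS+DHEA libraries and at 1912 and 1881 CPM in the LPS+DHEA+Nb libraries. The 28 spermatid and sperm markers summed to 32200 and 33900 CPM in the former and 34100 and 33800 CPM in the latter. Across genes, the Pearson correlation of log2 CPM was 0.9711 between the 2 LPS+DHEA libraries, 0.9695 between the 2 LPS+DHEA+Nb libraries, and 0.9679 to 0.9698 between libraries of different groups. The first principal component of all 8 libraries, with 17.7% of the variance, placed LPS+DHEA+Nb at 16.8 and 36.5, on the side of CTRL (49.7 and 41.4). It placed LPS+DHEA at -31.6 and -27.1, on the side of LPS (-46.6 and -39). The second component, with 14.8%, set the 2 LPS+DHEA+Nb libraries far apart, at -25 and 52.3.

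Relative to LPS+DHEA, the LPS+DHEA+Nb testes had less mRNA for secreted acute phase proteins (Cp, Lrg1, Lcn2), for the leukocyte adhesion receptor Icam1 and for smooth muscle actin (Acta2). They had more mRNA for lipoprotein lipase (Lpl), the detoxification enzyme Ephx1, the Wnt pathway regulator Apc and the motor protein Myo5a. Of 17 alternative fits, Cp and Acta2 were called in all, Apc in 16, Lrg1 in 15 and Lpl in 12. Myo5a was called in 11 of them, Icam1 in 10, Lcn2 in 9 and Ephx1 in 5. Most transcripts did not pass the test. Of 26414 genes tested, 23 were called (0.0871%) by edgeR's quasi-likelihood test at a Benjamini-Hochberg adjusted p under 0.05, a threshold used throughout. Of these, 15 were lower (0.0568%) and 8 were higher (0.0303%) with Nb23-bi. At an unadjusted p under 0.05 there were 1161 genes, where 1321 would be reached with no change at all. DESeq2 called 116 genes (70 lower and 46 higher) and limma-voom 11 (7 lower and 4 higher) on the same libraries. These numbers over all 26414 genes tested are the background for the list counts below. Without LPS+DHEA replicate 1, 16 genes were called, of which 6 were among the 23. Without LPS+DHEA replicate 2, 29 were called and 9 of them were among the 23. Without LPS+DHEA+Nb replicate 1, 64 were called (16 among the 23), without LPS+DHEA+Nb replicate 2, 39 (14 among the 23), and without CTRL replicate 1, 36 (20 among the 23). Cp, Acta2 and 1700027A15Rik were called in all 17 alternative fits. The fit of only the 4 libraries compared called 40 genes, of which 14 were among the 23. It did not call Icam1, Lcn2, Ifitm2, Myo5a, Spcs1, Ephx1, Hspa8, Setd3 or Cmtr2 (edgeR adjusted p of 0.0511 to 0.236). Of the 11 genes limma-voom called, 9 were among the 23.

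**Figure D1:**
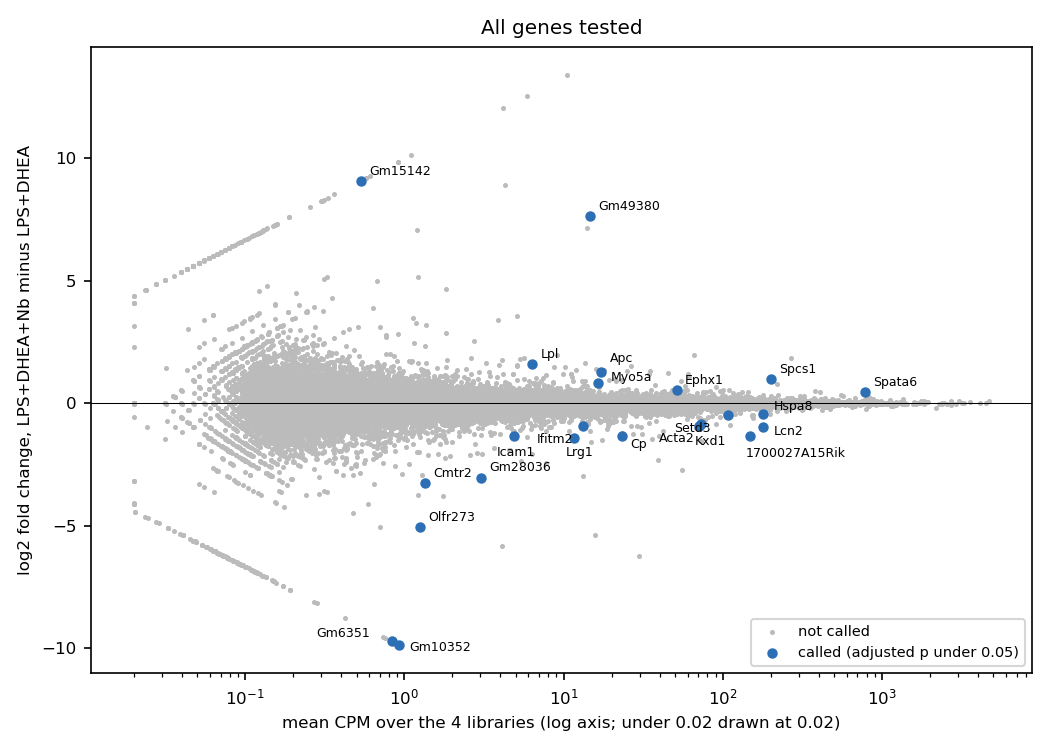
Log2 fold change between LPS+DHEA+Nb and LPS+DHEA (vertical axis) against the mean level over the 4 libraries in CPM (horizontal log axis) for 26414 genes, 1 point per gene. The 23 called genes are blue and labelled, and 15 of them lie below 0. The straight arms at the left are genes with no counts in one of the groups.

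Acute phase and injury proteins held 3 of the 15 genes called lower. Cp, the copper-carrying ferroxidase ceruloplasmin (ENSMUSG00000003617, chr3:19957054-20009145, GRCm38, plus strand), stood at 32.2 and 34.6 CPM in LPS+DHEA and at 14.3 and 12.2 CPM in LPS+DHEA+Nb. It was at 43.9 and 45.7 CPM in LPS and 8.21 and 9.03 CPM in CTRL. Both LPS+DHEA+Nb libraries thus lay far below every LPS+DHEA and LPS library and above both CTRL libraries. The log2 fold change between LPS+DHEA+Nb and LPS+DHEA was -1.34 (SE 0.115, edgeR adjusted p = 0.00264), a 2.52-fold lower level. In whole tissue, fewer cells of a kind and less RNA per cell cannot be told apart, here and for every gene below.

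Lrg1, a secreted leucine-rich glycoprotein (chr17:56119678-56122001, minus strand), was at 17.4 and 16.3 CPM in LPS+DHEA and at 6.42 and 6.31 CPM in LPS+DHEA+Nb. Lrg1 had a log2 fold change of -1.40 (SE 0.171, edgeR adjusted p = 0.0172), and its LPS+DHEA+Nb level lay just above the 4.33 and 5.00 CPM of CTRL. The call was lost without LPS+DHEA replicate 1 (edgeR adjusted p = 0.0887) and with limma-voom (adjusted p = 0.0889). Lcn2, the iron-siderophore-binding protein lipocalin 2, was at 224 and 250 CPM in LPS+DHEA and at 140 and 104 CPM in LPS+DHEA+Nb. The 2 groups did not overlap, and the LPS+DHEA+Nb libraries lay on both sides of the CTRL level of 127 and 125 CPM. Lcn2 had a log2 fold change of -0.96 (SE 0.123, edgeR adjusted p = 0.0365). Lcn2 was called in only 9 of the 17 alternative fits. When single libraries were left out it was called in 2 of 8 fits, those without either LPS+DHEA+Nb library. The adjusted p ran from 0.000305 to 0.165 and the log2 fold change from -1.19 to -0.76.

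Saa3, an acute phase apolipoprotein made outside the liver, had a larger difference that missed the threshold. It was at 94.0 and 98.1 CPM in LPS+DHEA and at 16.7 and 12.3 CPM in LPS+DHEA+Nb, against 114 and 161 CPM in LPS and 0.895 and 1.49 CPM in CTRL. No LPS+DHEA+Nb library came near the LPS+DHEA level, and both lay well above CTRL. Saa3 had a log2 fold change of -2.73 (SE 0.262, edgeR adjusted p = 0.0534), and it was called in 8 of the 17 alternative fits, among them DESeq2, limma-voom and the fit of only the 4 libraries compared. Serpina3n, a serine protease inhibitor, was at 54.3 and 50.2 CPM in LPS+DHEA and at 22.7 and 15.4 CPM in LPS+DHEA+Nb (log2 fold change -1.46, SE 0.238, edgeR adjusted p = 0.249). Timp1, an inhibitor of matrix metalloproteinases, was at 7.50 and 9.50 CPM against 3.97 and 2.57 CPM (log2 fold change -1.38, SE 0.236, edgeR adjusted p = 0.0972). Serpina3n and Timp1 were both called when LPS+DHEA+Nb replicate 1 was left out (edgeR adjusted p of 0.0411 and 0.0314), the library with the higher level of each.

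Of the 28 genes on the acute phase and injury list, 23 passed the filter on low counts. Among those, 3 were called lower and none higher, 20 had a negative and 3 a positive fold change, and the median log2 fold change was -1.25, against -0.0019 over all genes tested. In 15 of the 23, both LPS+DHEA+Nb libraries lay below both LPS+DHEA libraries, a pattern shared by 17.1% of all genes tested. DESeq2 called 10 of the 23 lower and limma-voom 4, with none higher by either. Over all 26414 genes tested, DESeq2 called 70 lower and limma-voom 7. Over the alternatives the list's median ran from -1.35 to -0.81, the latter without LPS+DHEA+Nb replicate 2.

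**Figure D2:**
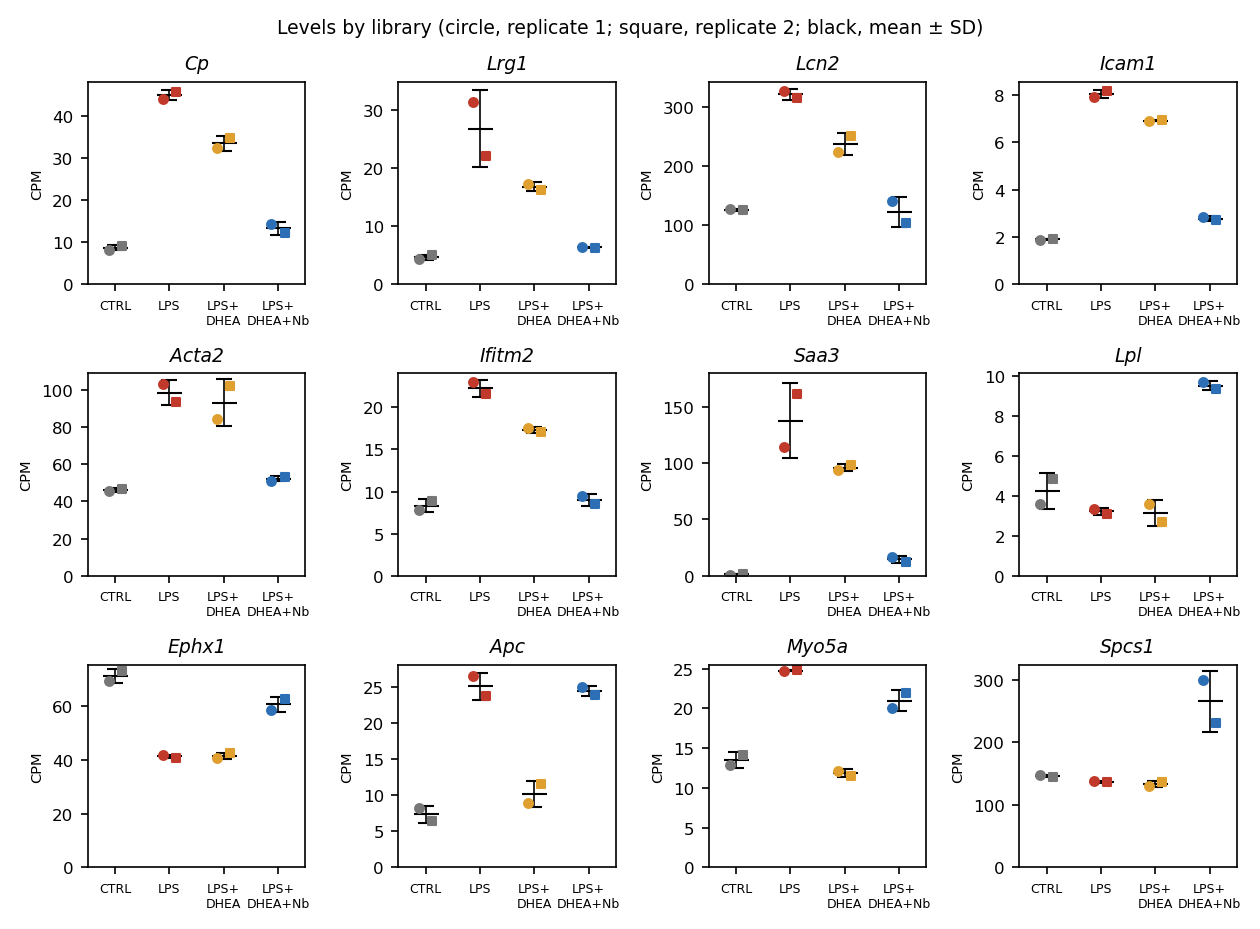
CPM of 12 genes in each of the 8 libraries (points: circle, replicate 1, and square, replicate 2), with the mean and SD of each group in black and every vertical axis starting at 0. Cp, Lrg1, Lcn2, Icam1, Acta2, Ifitm2 and Saa3 are lower in LPS+DHEA+Nb (blue) than in LPS+DHEA (orange), and Lpl, Ephx1, Apc, Myo5a and Spcs1 are higher. Saa3 did not pass the test.

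Icam1, the endothelial and leukocyte adhesion receptor and a textbook NF-kB target, was at 6.90 and 6.94 CPM in LPS+DHEA and at 2.85 and 2.70 CPM in LPS+DHEA+Nb. LPS stood at 7.92 and 8.17 CPM and CTRL at 1.87 and 1.92 CPM, so the replicates of each group were tight and the 4 groups did not overlap. Icam1 had a log2 fold change of -1.32 (SE 0.180, edgeR adjusted p = 0.0311), a 2.49-fold lower level. Neither the fit of only the 4 libraries compared (edgeR adjusted p = 0.0635) nor limma-voom (adjusted p = 0.0532) called Icam1. The call was lost without any single one of the 4 libraries compared, with edgeR adjusted p of 0.0692 to 0.13, while the log2 fold change stayed between -1.35 and -1.28. Of the 26 NF-kB feedback and adhesion targets listed, 25 were tested, edgeR called 1 lower (Icam1) and none higher, and the median was -0.23 (-0.39 without LPS+DHEA+Nb replicate 2, -0.36 without LPS+DHEA replicate 2, and -0.13 among genes with no overlapping gene). DESeq2 called Icam1 and Vcam1 and limma-voom none, and 11 were lower at an unadjusted p under 0.05. Vcam1, another adhesion receptor, was at 102 and 88.7 CPM in LPS+DHEA and at 56.7 and 62.1 CPM in LPS+DHEA+Nb (log2 fold change -0.68, SE 0.143, edgeR adjusted p = 0.322). Tnfaip3, the ubiquitin-editing brake on NF-kB, was at 6.10 and 5.50 CPM against 3.64 and 2.35 CPM (log2 fold change -0.95, SE 0.247, edgeR adjusted p = 0.542). Ifitm2, an interferon-inducible membrane protein, was called lower, with 17.6 and 17.1 CPM in LPS+DHEA and 9.49 and 8.50 CPM in LPS+DHEA+Nb. The difference was -0.95 on the log2 scale (SE 0.129, edgeR adjusted p = 0.0311). Neither the fit of only the 4 libraries compared (edgeR adjusted p = 0.0511) nor limma-voom (adjusted p = 0.0532) called Ifitm2. The Ifitm2 call was lost without LPS+DHEA replicate 1 (edgeR adjusted p = 0.143), LPS+DHEA replicate 2 (0.0933) or LPS+DHEA+Nb replicate 2 (0.13).

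The 250 bases before the start sites of 3 of these genes are shown because they hold short motifs bound by the inflammatory factors named above. They are RefSeq promoters on GRCm38.p6, printed along the gene's strand. Capitals mark an NF-kB motif (GGAANTTCC) and a STAT motif (TTCNNNGAA) in Icam1 and a C/EBP motif (TTGCNNAA) in Lcn2 and Saa3, searched on both strands. In Saa3 the match reads on the opposite strand. The Icam1 window is chr9:21015690-21015939 (plus strand), the Lcn2 window chr2:32387740-32387989 (minus strand) and the Saa3 window chr7:46715677-46715926 (minus strand).
Icam1: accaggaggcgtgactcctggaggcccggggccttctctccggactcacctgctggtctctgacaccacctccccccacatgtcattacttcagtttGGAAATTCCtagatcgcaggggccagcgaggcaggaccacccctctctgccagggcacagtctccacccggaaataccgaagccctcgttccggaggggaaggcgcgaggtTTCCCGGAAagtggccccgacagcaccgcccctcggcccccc
Lcn2: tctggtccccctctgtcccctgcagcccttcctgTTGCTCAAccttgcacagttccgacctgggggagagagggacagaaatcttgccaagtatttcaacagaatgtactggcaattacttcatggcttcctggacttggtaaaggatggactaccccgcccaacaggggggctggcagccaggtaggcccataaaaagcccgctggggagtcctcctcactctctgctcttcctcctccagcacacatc
Saa3: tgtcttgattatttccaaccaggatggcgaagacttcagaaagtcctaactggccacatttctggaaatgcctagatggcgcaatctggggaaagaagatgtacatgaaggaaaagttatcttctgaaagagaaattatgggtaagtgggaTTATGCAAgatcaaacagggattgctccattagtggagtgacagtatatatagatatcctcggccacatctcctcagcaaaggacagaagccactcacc
The Icam1 matches start 153 (NF-kB) and 42 (STAT) bases before the start site, the Lcn2 match 216 and the Saa3 match 99 bases before it.

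Of 32851 promoters of this length, 0.813% held GGAANTTCC, 7.02% TTCNNNGAA and 9.56% TTGCNNAA. Among the 15 genes called lower, 11 had a promoter in that set. A gene was counted if any of its promoters held the pattern, whereas the shares above are per promoter. Icam1 held the NF-kB and the STAT pattern, and Cp and Lcn2 held the C/EBP pattern. Among the 8 genes called higher, 5 had a promoter, and 1 of these held the C/EBP pattern and none the others. A match describes the letters only and does not show that a factor binds there.

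Cytokines and chemokines mostly had negative fold changes, and edgeR called none. Of the 31 listed, 26 were tested, 22 had a negative and 4 a positive fold change, and the median was -0.80. That median was -0.32 without LPS+DHEA replicate 1 and otherwise no lower than -1.12. At an unadjusted p under 0.05, 9 were lower and 1 higher, DESeq2 called 2 lower (Cxcl13 and Cxcl1), and limma-voom called none. In 15, both LPS+DHEA+Nb libraries lay below both LPS+DHEA libraries, against 17.1% of all genes tested, and in 2 both lay above, against 15.7%. Cxcl13, which attracts B cells, was at 2.35 and 2.18 CPM in LPS+DHEA and at 0.472 and 0.126 CPM in LPS+DHEA+Nb (log2 fold change -2.91, SE 0.488, edgeR adjusted p = 0.088), and it was called in 4 of the 17 alternative fits. Cxcl1, which attracts neutrophils, was at 1.60 and 0.736 CPM against 0.142 and 0.0946 CPM (log2 fold change -3.28, SE 0.683, edgeR adjusted p = 0.249). Ccl5, which attracts T cells and monocytes, was at 4.01 and 2.01 CPM against 1.29 and 0.694 CPM (log2 fold change -1.60, SE 0.415, edgeR adjusted p = 0.549). All 3 chemokines were low, and for Cxcl1 and Ccl5 the 2 LPS+DHEA libraries lay far apart.

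MHC class I and antigen processing genes also had mostly negative fold changes. All 21 listed were tested, edgeR called none, 18 had a negative and 3 a positive fold change, and the median was -0.31. The median was -0.13 without LPS+DHEA replicate 1, -0.52 without LPS+DHEA replicate 2 and -0.46 without LPS+DHEA+Nb replicate 1. At an unadjusted p under 0.05, 7 were lower, DESeq2 called H2-D1 alone and limma-voom none. H2-D1, a class I heavy chain, was at 77.1 and 67.2 CPM in LPS+DHEA and at 53.7 and 39.9 CPM in LPS+DHEA+Nb (log2 fold change -0.62, SE 0.140, edgeR adjusted p = 0.388), and edgeR called it without LPS+DHEA+Nb replicate 1 (log2 fold change -0.85). B2m, the class I light chain, was at 79.2 and 70.9 CPM against 58.6 and 46.5 CPM (log2 fold change -0.51, SE 0.145, edgeR adjusted p = 0.778). For both genes the groups did not overlap. Complement genes had a median of -0.18 over 19 tested, which ran from -0.36 (without LPS+DHEA replicate 2) to -0.05 (among genes with no overlapping gene), with -0.29 without LPS+DHEA+Nb replicate 1 and -0.11 without LPS+DHEA+Nb replicate 2. EdgeR and limma-voom called none of them and DESeq2 called 1 lower, and 6 were lower at an unadjusted p under 0.05. The 48 interferon-stimulated genes had a median of -0.15, with 31 negative and 17 positive, and the sign of that median did not hold. It was 0.01 without LPS+DHEA replicate 1, -0.25 without LPS+DHEA replicate 2, -0.30 without LPS+DHEA+Nb replicate 1 and -0.05 without LPS+DHEA+Nb replicate 2. EdgeR, DESeq2 and limma-voom called none of the 48. At an unadjusted p under 0.05, 3 were lower, where 1161 of all 26414 genes tested passed in either direction.

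**Figure D3:**
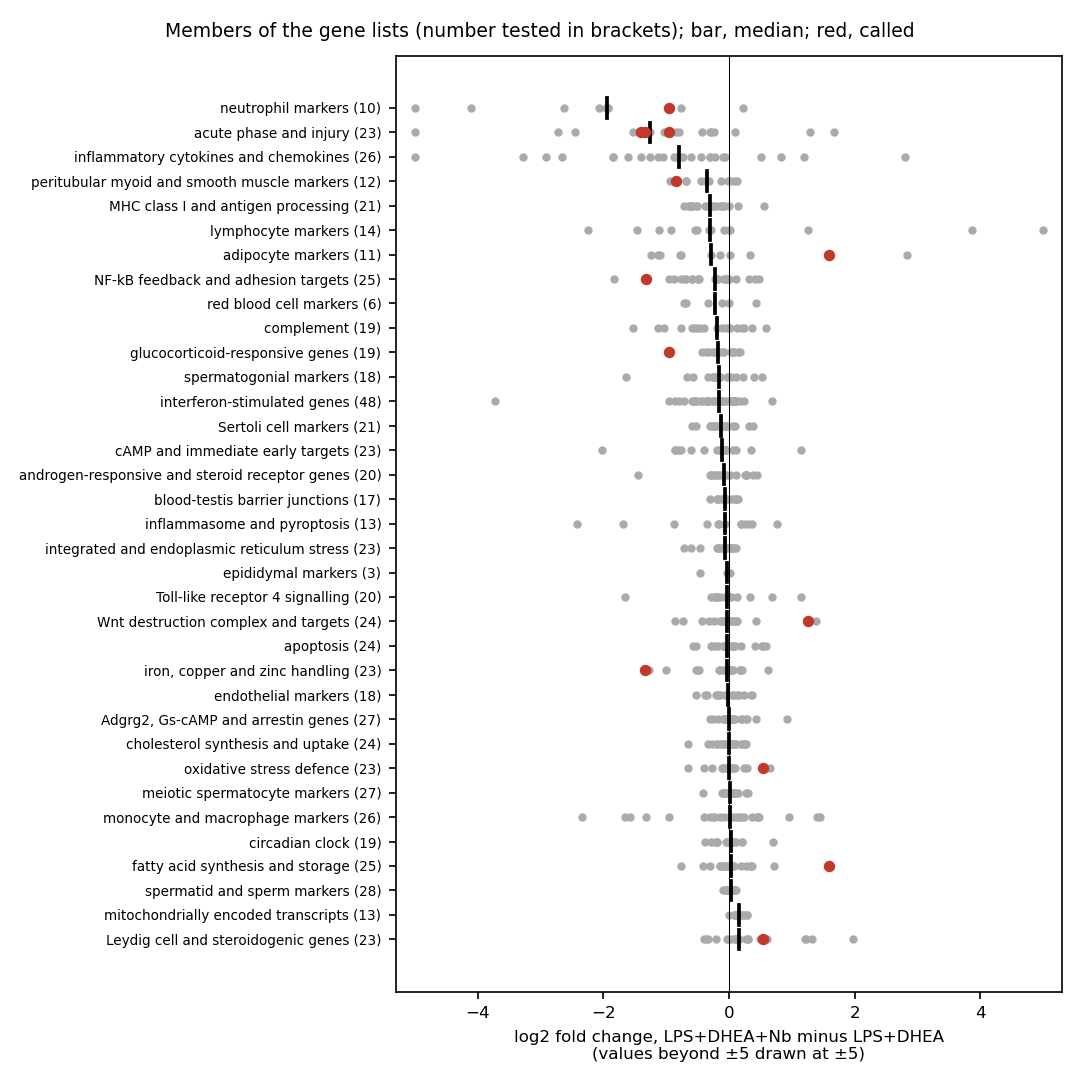
Log2 fold change between LPS+DHEA+Nb and LPS+DHEA (horizontal axis) for the tested members of 35 gene lists, 1 grey point per gene, with called genes in red and each list's median as a black bar. Neutrophil markers (median -1.95), acute phase genes (-1.25) and cytokines (-0.80) have the lowest medians here, which were -1.03, -1.35 and -0.32 without LPS+DHEA replicate 1. Leydig cell and steroidogenic genes and mitochondrially encoded transcripts (both 0.16) have the highest.

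The genes that LPS itself raised gave a second view of the same libraries. LPS versus CTRL called 78 genes (0.295%), 68 higher (0.257%) and 10 lower (0.0379%), and it shares no library with LPS+DHEA+Nb versus LPS+DHEA, although both use the spread estimated from all 8 libraries. Of the 68 genes raised by LPS, 62 (91.2%) had a negative fold change with Nb23-bi, against 50.5% of all genes tested, and the median log2 fold change was -0.61. In 58 of the 68 (85.3%), both LPS+DHEA+Nb libraries lay below both LPS+DHEA libraries, against 17.1% of all genes tested. Of the 68, 8 were called lower and 2 higher. Of the 10 genes lowered by LPS, 2 were called higher, and the median of the 10 was 0.22. A positive fold change was found in 9 of the 10 (90%), against 49.5% of all genes tested. The 9 ran from 0.0068 (Arrb1) to 9.07 (Gm15142). In only 4 of the 10 (40%) did both LPS+DHEA+Nb libraries lie above both LPS+DHEA libraries, against 15.7% of all genes tested. Across the 68 genes, the LPS effect and the Nb23-bi effect had a Pearson correlation of -0.641 and a Spearman correlation of -0.637. Over the 18407 genes with a mean of at least 1 CPM these were -0.315 and -0.187, and over all 26414 genes -0.078 and -0.104. Genes are not independent replicates, since all points come from the same libraries. The 2 lists of called genes shared 12 genes, 52.2% of the 23 and 15.4% of the 78, and 10 of the 12 had opposite directions. Over the alternative fits, 60 to 63 of the 68 had a negative fold change where all 68 were tested.

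**Figure D4:**
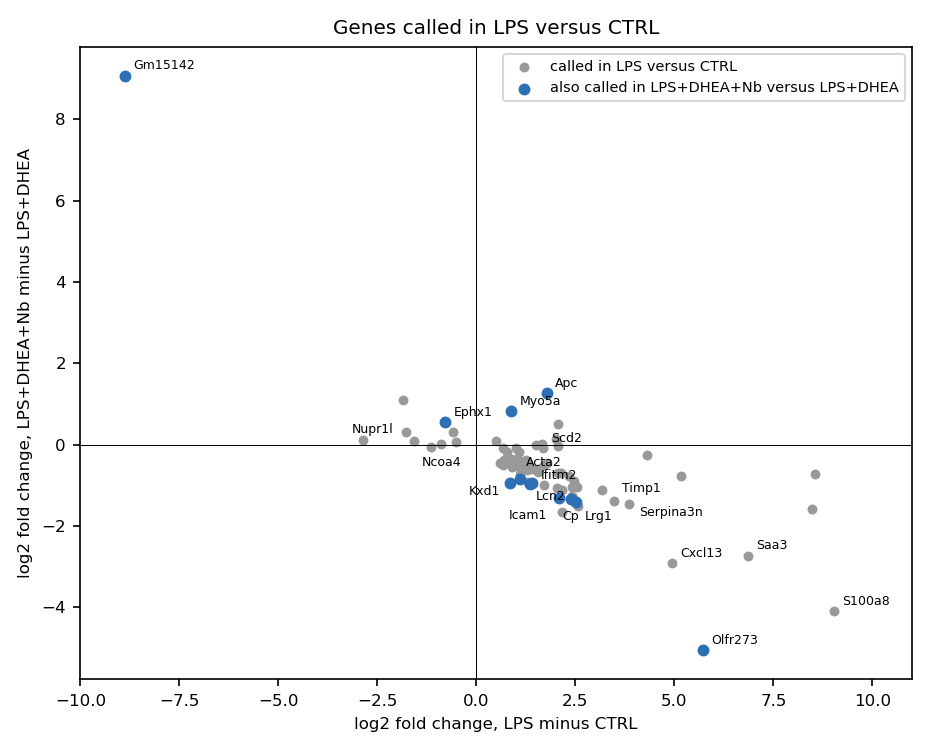
For the 78 genes called in LPS versus CTRL, the log2 fold change in LPS versus CTRL (horizontal axis) against that in LPS+DHEA+Nb versus LPS+DHEA (vertical axis), 1 point per gene, with the 12 genes called in both in blue. Of the 68 genes right of 0, 62 lie below 0 on the vertical axis, and Apc and Myo5a are the called genes that lie above it.

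The 2 called exceptions were Apc and Myo5a. Apc, the scaffold of the complex that degrades beta-catenin, was at 8.89 and 11.5 CPM in LPS+DHEA and at 24.9 and 23.9 CPM in LPS+DHEA+Nb. LPS stood at 26.4 and 23.8 CPM and CTRL at 8.17 and 6.47 CPM, so LPS+DHEA resembled CTRL in level and LPS+DHEA+Nb resembled LPS. The log2 fold change was 1.26 (SE 0.157, edgeR adjusted p = 0.0186), and the call was lost without LPS+DHEA replicate 1 (edgeR adjusted p = 0.113). Myo5a, which carries vesicles and melanosomes along actin, was at 12.2 and 11.5 CPM in LPS+DHEA and at 20.1 and 21.9 CPM in LPS+DHEA+Nb. LPS stood at 24.7 and 24.8 CPM and CTRL at 12.8 and 14.2 CPM. As for Apc, LPS+DHEA+Nb lay nearer to LPS than to CTRL, but here LPS+DHEA lay below both CTRL libraries. The log2 fold change of Myo5a was 0.83 (SE 0.115, edgeR adjusted p = 0.0322). Neither the fit of only the 4 libraries compared (edgeR adjusted p = 0.0635) nor limma-voom (adjusted p = 0.0618) called Myo5a. Its call was also lost without LPS+DHEA replicate 1, LPS+DHEA replicate 2 or LPS+DHEA+Nb replicate 2. Apc was the only gene that edgeR, DESeq2 or limma-voom called among the 24 genes of the Wnt destruction complex and its targets, whose median was -0.04 (-0.07 to 0.06 over the alternatives).

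Other genes that LPS moved had similar levels in both treated groups. Scd2, which desaturates fatty acids, was at 168 and 162 CPM in LPS and at 50.0 and 48.6 CPM in LPS+DHEA. It was at 46.1 and 47.3 CPM in LPS+DHEA+Nb (log2 fold change -0.08, SE 0.0866, edgeR adjusted p = 1). Nupr1l, a nuclear protein 1-like gene, was at 63.6 and 55.2 CPM in LPS, at 176 and 175 CPM in LPS+DHEA and at 195 and 175 CPM in LPS+DHEA+Nb (log2 fold change 0.08, SE 0.0843, edgeR adjusted p = 1). Both genes lay near their CTRL level (55.7 and 47.8 CPM for Scd2, 171 and 182 CPM for Nupr1l) in both treated groups. Ncoa4, the receptor for ferritin breakdown, was at 61.3 and 67.5 CPM in LPS+DHEA and 60.7 and 62.3 CPM in LPS+DHEA+Nb, near LPS (60.9 and 60.6 CPM) and below CTRL (123 and 148 CPM). The fitted log2 fold change was -0.07 (SE 0.0955, edgeR adjusted p = 1).

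Acta2, the actin of smooth muscle and of peritubular myoid cells (chr19:34241090-34255590, minus strand), fell from 84.0 and 102 CPM in LPS+DHEA to 51.1 and 53.0 CPM in LPS+DHEA+Nb. CTRL was at 45.3 and 46.7 CPM and LPS at 103 and 93.6 CPM. The LPS+DHEA+Nb libraries lay just above CTRL, and the log2 fold change was -0.84 (SE 0.0999, edgeR adjusted p = 0.0172). Tpm2, a muscle tropomyosin, was at 12.6 and 14.9 CPM in LPS+DHEA and at 8.61 and 8.41 CPM in LPS+DHEA+Nb (log2 fold change -0.69, SE 0.140, edgeR adjusted p = 0.249). Cnn1, the smooth muscle protein calponin, was at 6.95 and 7.72 CPM against 3.89 and 3.72 CPM (log2 fold change -0.95, SE 0.196, edgeR adjusted p = 0.249). Of 12 myoid and smooth muscle markers, edgeR and limma-voom called Acta2 alone and DESeq2 called 3 lower (Acta2, Tpm2 and Cnn1). Their median was -0.35 (-0.57 among genes with no overlapping gene), and their summed level was 585 and 613 CPM in LPS+DHEA and 530 and 502 CPM in LPS+DHEA+Nb. In 8 of the 12, both LPS+DHEA+Nb libraries lay below both LPS+DHEA libraries, against 17.1% of all genes tested.

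Among markers of blood-borne and resident immune cells, those of neutrophils mostly had negative fold changes and those of monocytes and macrophages went both ways. Of 15 neutrophil markers, 10 were tested, edgeR and limma-voom called Lcn2 alone (lower), DESeq2 called Lcn2 and S100a8 lower, and the median was -1.95. The median was -1.03 without LPS+DHEA replicate 1 and -0.77 among genes with a mean of at least 1 CPM. Of the 10, 9 had a negative and 1 a positive fold change. In 6 of them both LPS+DHEA+Nb libraries lay below both LPS+DHEA libraries, against 17.1% of all genes tested. The 14 markers other than Lcn2 summed to 11.1 and 7.88 CPM in LPS+DHEA and to 4.55 and 6.14 CPM in LPS+DHEA+Nb, against 12 and 8.73 CPM in LPS and 5.02 and 4.39 CPM in CTRL. The defining marker Ly6g had 0 counts in both LPS+DHEA libraries and 5 and 0 in the LPS+DHEA+Nb libraries, and Camp had 0 in all 4. S100a8, a calcium-binding protein of neutrophils, was at 1.67 and 0.556 CPM in LPS+DHEA and at 0.0315 and 0.0946 CPM in LPS+DHEA+Nb (log2 fold change -4.10, SE 0.804, edgeR adjusted p = 0.249). The 26 monocyte and macrophage markers had a median of 0.01 that changed sign without LPS+DHEA replicate 2 (-0.05) or LPS+DHEA+Nb replicate 1 (-0.0047), and was 0.12 without LPS+DHEA replicate 1 and 0.04 without LPS+DHEA+Nb replicate 2. Of these, 15 were positive and 11 negative, edgeR and limma-voom called none, DESeq2 called 2 lower and 1 higher, and 3 were lower and 1 higher at an unadjusted p under 0.05. They summed to 373 and 351 CPM in LPS+DHEA and 364 and 360 CPM in LPS+DHEA+Nb. Within that list, Cd14, the LPS co-receptor, was at 5.32 and 3.11 CPM against 1.68 and 0.978 CPM (log2 fold change -1.66, SE 0.338, edgeR adjusted p = 0.249). Cx3cr1, the fractalkine receptor, had the opposite sign, with 1.03 and 1.64 CPM in LPS+DHEA and 3.56 and 3.47 CPM in LPS+DHEA+Nb (log2 fold change 1.40, SE 0.291, edgeR adjusted p = 0.249). Whether the share of immune cells plays a part in the lower inflammatory genes was not tested.

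Of the 8 genes called higher, Lpl, Ephx1 and Apc were on the gene lists and the other 5 on none. Lpl, which releases fatty acids from circulating triglycerides (chr8:68880491-68907448, plus strand), was at 3.60 and 2.70 CPM in LPS+DHEA and at 9.71 and 9.37 CPM in LPS+DHEA+Nb. LPS (3.35 and 3.12 CPM) and CTRL (3.60 and 4.88 CPM) were also low, so the LPS+DHEA+Nb libraries stood above the other 6. The log2 fold change was 1.60 (SE 0.222, edgeR adjusted p = 0.0322), a 3.03-fold higher level. The call was lost without any single one of the 4 libraries compared, with edgeR adjusted p of 0.0586 to 0.149. Lpl was the only gene that edgeR, DESeq2 or limma-voom called among 25 fatty acid synthesis and storage genes (median 0.03, from -0.03 without LPS+DHEA replicate 1 to 0.07 without LPS+DHEA+Nb replicate 2) and among 11 adipocyte markers. The adipocyte median was -0.28, with -0.05 without LPS+DHEA replicate 1, -0.66 without LPS+DHEA replicate 2 and -0.69 without LPS+DHEA+Nb replicate 2. The adipocyte markers summed to 32.8 and 26.1 CPM in LPS+DHEA and 32.1 and 34.8 CPM in LPS+DHEA+Nb.

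Spata6, which builds the neck of the sperm, was at 643 and 663 CPM in LPS+DHEA and at 914 and 883 CPM in LPS+DHEA+Nb (log2 fold change 0.46, SE 0.0696, edgeR adjusted p = 0.0491). CTRL, at 738 and 644 CPM, and LPS, at 673 and 643 CPM, were both below LPS+DHEA+Nb. The Spata6 call was lost without any 1 of the 4 libraries compared (edgeR adjusted p of 0.0925 to 0.264) or without either LPS library. Spcs1, a subunit of the signal peptidase complex, was at 130 and 137 CPM against 300 and 231 CPM, and CTRL and LPS lay between 136 and 147 CPM. Spcs1 had a log2 fold change of 0.99 (SE 0.105, edgeR adjusted p = 0.00761), and the 2 LPS+DHEA+Nb libraries were far apart. The fit of only the 4 libraries compared did not call Spcs1 (edgeR adjusted p = 0.0635). The Spcs1 call was lost without LPS+DHEA replicate 1 (edgeR adjusted p = 0.0833). Spermatid and sperm markers as a whole had a median of 0.04 over 28 genes (0.01 to 0.07 over the alternatives). EdgeR, DESeq2 and limma-voom called none of them, and 0 passed an unadjusted p under 0.05.

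Hspa8, the constitutive heat shock chaperone, and Setd3, an actin histidine methyltransferase, had small called decreases. Hspa8 was at 205 and 210 CPM in LPS+DHEA and at 156 and 147 CPM in LPS+DHEA+Nb (log2 fold change -0.45, SE 0.0652, edgeR adjusted p = 0.0365). Setd3 was at 125 and 127 CPM against 90.6 and 88.1 CPM (log2 fold change -0.50, SE 0.0714, edgeR adjusted p = 0.0365). In both genes the LPS+DHEA+Nb libraries lay below all 6 others. Both calls were lost when any 1 of the 4 libraries compared was left out, with edgeR adjusted p of 0.0598 to 0.213 for Hspa8 and 0.0829 to 0.164 for Setd3, and the Hspa8 call also without either CTRL library or LPS replicate 2.

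Of the 23 Leydig cell and steroidogenic genes, edgeR called 1 higher and none lower, DESeq2 called 2 higher (Ephx1 and Cyp17a1) and limma-voom none. Ephx1, a microsomal epoxide hydrolase abundant in steroid-making and liver cells, was at 40.8 and 42.4 CPM in LPS+DHEA and at 58.7 and 62.6 CPM in LPS+DHEA+Nb. LPS was at 41.7 and 40.9 CPM and CTRL at 69.4 and 73.0 CPM, which placed LPS+DHEA+Nb between LPS+DHEA and CTRL. Ephx1 had a log2 fold change of 0.54 (SE 0.0825, edgeR adjusted p = 0.0491). Ephx1 was called in 5 of the 17 alternative fits and in none of the 8 that left out a library (edgeR adjusted p 0.0586 to 0.264), while its log2 fold change stayed between 0.50 and 0.59.

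The hormone receptor Lhcgr and genes of testosterone synthesis follow. Cyp11a1, Lhcgr, Hsd3b6 and Hsd17b3 were added to this set after their values were seen. Lhcgr, the receptor for luteinising hormone, was at 5.02 and 4.60 CPM in LPS+DHEA and at 6.80 and 6.81 CPM in LPS+DHEA+Nb (log2 fold change 0.50, SE 0.220, edgeR adjusted p = 1). Star, which brings cholesterol into mitochondria, was at 14.5 and 25.2 CPM against 62.7 and 36.1 CPM (log2 fold change 1.32, SE 0.387, edgeR adjusted p = 1). Within each of these groups the 2 libraries of Star differed by more than 10 CPM. Cyp11a1, the side-chain cleavage enzyme, was at 35.6 and 38.0 CPM against 96.3 and 72.9 CPM (log2 fold change 1.20, SE 0.438, edgeR adjusted p = 1).

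Hsd3b1, the 3-beta-hydroxysteroid dehydrogenase that acts on DHEA and pregnenolone, was at 28.6 and 25.1 CPM in LPS+DHEA and at 66.6 and 59.7 CPM in LPS+DHEA+Nb. CTRL was at 67.3 and 50.8 CPM and LPS at 12.2 and 22.9 CPM. Its log2 fold change was 1.23 (SE 0.313, edgeR adjusted p = 0.901). Hsd3b6, another steroid enzyme on the list, differed less and did not pass the test. It was at 31.9 and 26.1 CPM in LPS+DHEA and at 38.3 and 45.4 CPM in LPS+DHEA+Nb (log2 fold change 0.53, SE 0.222). Cyp17a1, the enzyme that makes DHEA from pregnenolone, was at 27.7 and 25.3 CPM in LPS+DHEA and at 113 and 96.3 CPM in LPS+DHEA+Nb. CTRL was at 106 and 156 CPM and LPS at 44.2 and 17.4 CPM. Cyp17a1 had a log2 fold change of 1.98 (SE 0.509, edgeR adjusted p = 0.979), and the 2 LPS libraries differed from each other by more than the 2 LPS+DHEA+Nb libraries did. With only the 4 libraries compared in the fit, the CTRL and LPS spread no longer entered. In that fit Hsd3b1 (edgeR adjusted p = 0.00434) and Cyp17a1 (edgeR adjusted p = 0.000208) were called, with log2 fold changes of 1.24 and 1.98. Cyp11a1 was called there too (log2 fold change 1.21). Of the 17 alternative fits, 3 called Hsd3b1 and 2 called Cyp17a1. Limma-voom called neither (adjusted p of 0.194 and 0.164). Neither was called when any 1 of the 4 libraries compared was left out. Over the alternatives the log2 fold change ran from 1.14 to 1.33 for Hsd3b1 and from 1.87 to 2.09 for Cyp17a1. Hsd17b3, which makes testosterone, was at 12.1 and 10.1 CPM against 14.8 and 12.4 CPM (log2 fold change 0.30, SE 0.173, edgeR adjusted p = 1).

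Outside the enzyme chain, values went both ways. Insl3, a peptide hormone and the most used marker of adult Leydig cells, was at 503 and 484 CPM in LPS+DHEA and at 559 and 506 CPM in LPS+DHEA+Nb (log2 fold change 0.11, SE 0.0689, edgeR adjusted p = 1). Nr5a1, the transcription factor SF-1, had the opposite sign, with 41.7 and 39.6 CPM against 32.4 and 29.7 CPM (log2 fold change -0.39, SE 0.0913, edgeR adjusted p = 0.402). All 23 genes of the list were tested, 17 had a positive and 6 a negative fold change, and the median was 0.16 (0.31 without LPS+DHEA replicate 1 and among genes with no overlapping gene). At an unadjusted p under 0.05, 7 were higher and 2 lower. In 13 of the 23, both LPS+DHEA+Nb libraries lay above both LPS+DHEA libraries, against 15.7% of all genes tested. The list's summed level was 1050 and 1030 CPM in LPS+DHEA, 1360 and 1250 CPM in LPS+DHEA+Nb, 1140 and 1140 CPM in LPS and 1280 and 1490 CPM in CTRL.

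**Figure D5:**
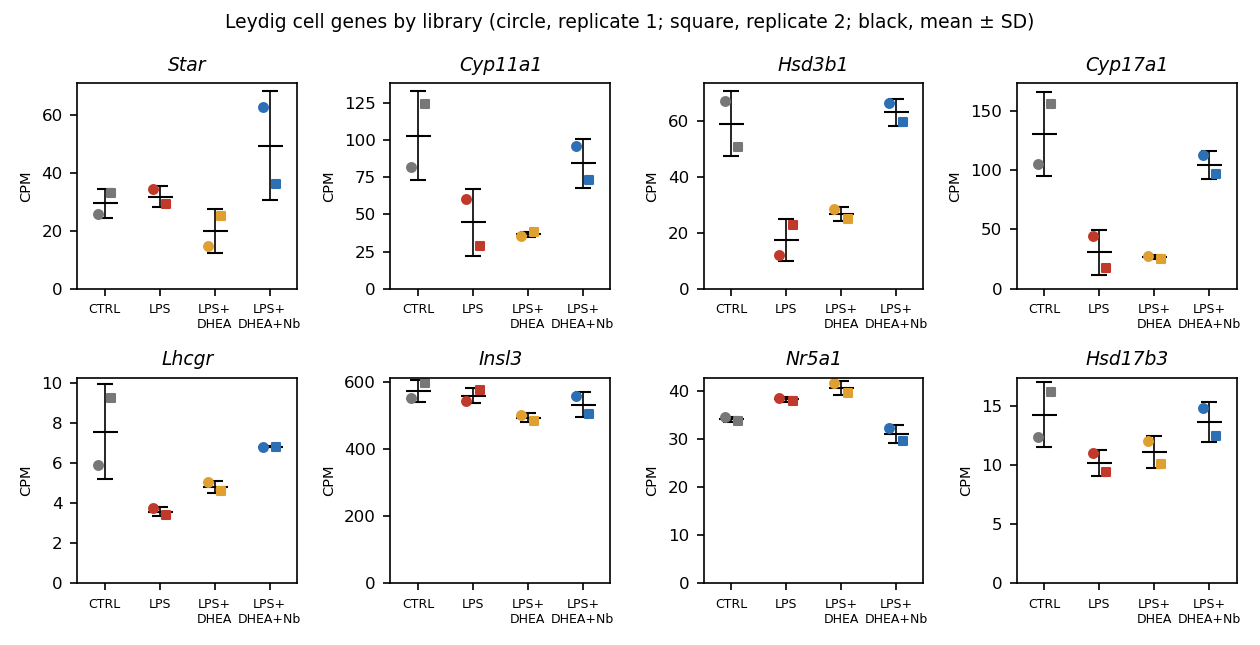
CPM of 8 Leydig cell genes in each of the 8 libraries (points: circle, replicate 1, and square, replicate 2), with the mean and SD of each group in black and every vertical axis starting at 0. Star, Cyp11a1, Hsd3b1 and Cyp17a1 are higher in both LPS+DHEA+Nb libraries than in both LPS+DHEA libraries, Insl3 differs little and Nr5a1 is lower. None of the 8 passed the edgeR test.

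Adgrg2, an adhesion G protein-coupled receptor, was close to the detection limit, at 0.0626 and 0.622 CPM in LPS+DHEA and at 0.598 and 0.694 CPM in LPS+DHEA+Nb. The 2 LPS+DHEA libraries differed by more than the groups did, and the log2 fold change of 0.92 (SE 0.869, edgeR adjusted p = 1) was not resolved at this depth. It was 0.06 without LPS+DHEA replicate 1 and 3.33 without LPS+DHEA replicate 2. Arrb1, beta-arrestin 1, was at 23.2 and 26.1 CPM in LPS+DHEA and at 22.9 and 26.6 CPM in LPS+DHEA+Nb (log2 fold change 0.01, SE 0.143, edgeR adjusted p = 1), with overlapping groups. Of the 27 Adgrg2, Gs-cAMP and arrestin genes, all were tested, edgeR, DESeq2 and limma-voom called none, 0 passed an unadjusted p under 0.05, and the median was between -0.01 and 0.04 over the alternatives.

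Several called genes cannot be read as a change of 1 gene. Of the 23, 13 (56.5%) overlap another annotated gene, against 51.8% of all genes tested, and the sources used here do not give the strand setting of the counting. 1700027A15Rik, antisense to Tnp1 (chr1:72984844-73025507, plus strand), was at 207 and 218 CPM in LPS+DHEA and at 82.7 and 85.7 CPM in LPS+DHEA+Nb, also below CTRL and LPS (209 to 257 CPM). It had the smallest p of all (log2 fold change -1.34, SE 0.0651, edgeR adjusted p = 1.41e-05), while the log2 fold change of Tnp1 was 0.09. Kxd1, a lysosome-positioning protein whose gene overlaps other annotated genes, was at 97.3 and 88.1 CPM in LPS+DHEA and at 46.9 and 50.0 CPM in LPS+DHEA+Nb, close to CTRL (47.9 and 57.9 CPM). Its log2 fold change was -0.94 (SE 0.101, edgeR adjusted p = 0.00761), lost without LPS+DHEA replicate 1 (edgeR adjusted p = 0.0517). None of the genes that overlap Cp or Spcs1 was called.

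Gm49380 rose from 7 and 11 counts in LPS+DHEA to 1904 and 1776 counts in LPS+DHEA+Nb (log2 fold change 7.63, SE 0.603, edgeR adjusted p = 0.0172). Gm39325, which overlaps it on the same strand, had 1996 and 1862 counts in the LPS+DHEA libraries against 66 and 27 with Nb23-bi, and did not pass the test (log2 fold change -5.39, SE 2.19, edgeR adjusted p = 1). It was called with only the 4 libraries compared and without either CTRL library. Gm39325 also stood at 17 counts in CTRL replicate 1 and 2294 in CTRL replicate 2, so a contrast of that size occurred within an untreated group. Without LPS+DHEA replicate 1 or 2 the Gm49380 call was lost (edgeR adjusted p of 0.179 and 0.132). Gm28036 overlaps Nfs1, Cpne1 and Rbm12, and fell from 278 and 397 counts to 27 and 57 counts (log2 fold change -3.03, SE 0.359, edgeR adjusted p = 0.0251). Its call was lost without LPS+DHEA replicate 2 (edgeR adjusted p = 0.0633).

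A last set of called genes went from detected to nearly absent, or the reverse, at low levels. Gm6351 had 118 and 90 counts in LPS+DHEA and 0 in both LPS+DHEA+Nb libraries, at least 35.1-fold lower against a floor of 3 counts per library. Gm10352, on chromosome Y, had 141 and 90 counts in LPS+DHEA and 0 in the other 6 libraries, at least 38.9-fold lower in LPS+DHEA+Nb. Gm15142, a pseudogene on chromosome X, had 0 counts in both LPS and both LPS+DHEA libraries, 69 and 66 counts in LPS+DHEA+Nb and 64 and 54 in CTRL, at least 22.2-fold higher in LPS+DHEA+Nb than in LPS+DHEA. Whether reads of these 3 genes also match elsewhere in the genome was not tested. Olfr273, an olfactory receptor gene, fell from 164 and 140 counts in LPS+DHEA to 5 and 4 counts in LPS+DHEA+Nb, against 121 and 208 in LPS and 4 and 2 in CTRL (log2 fold change -5.06, SE 0.490, edgeR adjusted p = 0.00545). Cmtr2, an mRNA cap methyltransferase, had 175 and 130 counts against 8 and 24 (log2 fold change -3.26, SE 0.471, edgeR adjusted p = 0.0365). Limma-voom called none of these 5 genes. Without LPS+DHEA replicate 1, the edgeR adjusted p was 0.484 for Gm10352, 0.0987 for Gm15142 and 0.144 for Cmtr2, and without LPS+DHEA replicate 2 it was 0.144, 0.0712 and 0.0712. Gm10352 also lost its call without LPS+DHEA+Nb replicate 2 (edgeR adjusted p = 0.0706), and Cmtr2 without LPS+DHEA+Nb replicate 1 (edgeR adjusted p = 0.0586) or CTRL replicate 2.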

How the data were processed

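Gene-level RNA-seq data from mouse testis covered 8 libraries in 4 groups of 2, grouped by the labels' titles. The KAPA Stranded RNA-Seq kit was used, per the labels' protocols. The submitters' processing notes name HISAT (no version), featureCounts 1.5.0-p3 and GRCm38, with no role or order. The deposited values were taken as estimated counts for each Ensembl gene, and column totals show no scaling for library size. The tests planned for counts were used, and the values, already whole, needed no rounding. Multiples of 4 made up 33.5% of the values between 1 and 40 (25% if even), so 1 alternative divided all values by 4.

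The edgeR 4.0.16 function filterByExpr (at least 10 counts in a group's worth of libraries, 15 in total) left 26414 of 55421 genes. TMM factors were 0.985 to 1.015. All 8 libraries entered 1 robust quasi-likelihood fit (glmQLFit, glmQLFTest) of the 4 group means, which left 4 residual degrees of freedom. Benjamini-Hochberg adjustment ran over all genes tested. The SE is the log2 fold change divided by the square root of F. The common biological coefficient of variation was 0.231. R 4.3.3, limma 3.58.1 and DESeq2 1.42.0 were used. Steps were tested on simulated data.

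The comparison, the 35 lists and most alternatives were chosen with earlier results of these data known, so lists are described by counts and medians without a test. Named genes are called genes, the smallest p in each direction up to 10, the 3 smallest p of each list and a set chosen with earlier results known. The called genes 1700027A15Rik, Gm6351, Gm10352, Gm15142 and Gm28036 lie outside that rule and were added after their values were seen. Positions are from GENCODE M21, 1-based. 2 alternatives were added after seeing the data: genes without an overlapping gene, and genes with a mean of at least 1 CPM.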

Additional observations from a re-analysis of the deposited data

How the results depend on the processing

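The 23 calls between LPS+DHEA+Nb and LPS+DHEA became 116 with DESeq2, 11 with limma-voom, 42 with no filter on low counts, 40 with only the 4 libraries compared (14 of the 23 again) and 10 among genes with no overlapping gene (fewer genes tested). Leaving out 1 library gave 16 to 64. The 78 calls between LPS and CTRL became 291 with DESeq2, 49 with limma-voom, 140 with no filter and 122 at an adjusted p under 0.10, and leaving out 1 library gave 66 to 118. The cause was not tested. Size factors, library size alone, counts divided by 4, at least 1 CPM in 2 libraries and a 1.5-fold minimum gave 19 to 24. Where 1 library was left out, the lone library was assumed to vary like the other groups. With the replicate block, 16 genes were called, 14 of them among the 23. The deviations of same-numbered LPS+DHEA and LPS+DHEA+Nb libraries correlated at 0.002 over all genes tested. That gave no sign of pairing by replicate number, but a single value over all genes cannot show pairing limited to some of them. The log2 fold change of Arrb1 changed sign without LPS+DHEA replicate 1 (-0.07) or LPS+DHEA+Nb replicate 2 (-0.10), and that of Ncoa4 without LPS+DHEA replicate 2 (0.0047). Leaving out single libraries, Arrb1 ran from -0.1025 to 0.1175 and Ncoa4 from -0.1318 to 0.0047. Of the other values of named genes under the alternatives, 940 kept sign and side of the threshold, 48 gained and 96 lost a call. With 2 libraries a group, a gene near or below 1 CPM can be resolved only where its difference is many-fold.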

Other observations

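Fcrls, Cd209f and Cd72 were among the genes with the smallest p in the higher direction and did not pass the test. The lists of immune cell markers did not rise with them. The macrophage list had a median of 0.01, and the 14 tested lymphocyte markers one of -0.31 (-0.40 to -0.04 over the alternatives). Of these 14, 10 were negative and 4 positive. EdgeR and limma-voom called none of the 14, and DESeq2 called 1 higher (Ighm). Fcrls, an Fc receptor-like scavenger receptor, was at 0.250 and 0.196 CPM in LPS+DHEA and at 1.01 and 3.30 CPM in LPS+DHEA+Nb (log2 fold change 3.26, SE 0.579, edgeR adjusted p = 0.121). Cd209f, a C-type lectin, was at 0.892 and 0.720 CPM against 2.41 and 6.96 CPM (log2 fold change 2.53, SE 0.462, edgeR adjusted p = 0.136). Cd72, a B cell co-receptor, was at 2.43 and 1.57 CPM against 5.07 and 4.61 CPM (log2 fold change 1.27, SE 0.250, edgeR adjusted p = 0.205). For Fcrls and Cd209f the 2 LPS+DHEA+Nb libraries lay far apart, with replicate 2 the higher. Mesd, a chaperone for lipoprotein receptors, was at 40.8 and 39.9 CPM against 53.4 and 63.0 CPM (log2 fold change 0.53, SE 0.0961, edgeR adjusted p = 0.136), and CTRL and LPS lay between 53.0 and 58.3 CPM.

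Iron and oxidant handling held further non-passing differences. Fth1, the ferritin heavy chain, was at 176 and 183 CPM in LPS+DHEA and at 134 and 122 CPM in LPS+DHEA+Nb, against 240 and 188 CPM in LPS and 121 and 109 CPM in CTRL (log2 fold change -0.49, SE 0.109, edgeR adjusted p = 0.346). Gpx1, a glutathione peroxidase, was at 24.4 and 26.0 CPM against 17.7 and 14.4 CPM (log2 fold change -0.66, SE 0.169, edgeR adjusted p = 0.542). In both genes the groups did not overlap. All 13 mitochondrially encoded transcripts had a positive fold change (median 0.16, or 0.08 without LPS+DHEA replicate 2), and 0 passed an unadjusted p under 0.05. Sertoli cell markers had a median of -0.12 over 21 genes. At an unadjusted p under 0.05, 2 of them were lower, where 1161 of all 26414 genes tested passed in either direction. EdgeR, DESeq2 and limma-voom called no gene of either list.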
